A study of Homo sapiens with 6 samples.

Results

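Vimentin and the keratins are the cytoplasmic intermediate filament genes examined here, taken as the rows of the deposited tables whose symbol is VIM, KRT5, KRT7, KRT8, KRT10, KRT17, KRT18, KRT19, KRT80 or KRT81. Of these 10 genes, 9 had a row among the 26899 genes of the counts table, and all 9 passed the low-count filter and were among the 15299 genes tested. KRT5 was not analysed here. The libraries were prepared from polyadenylated RNA of the HK-2 cell line, which derives from the proximal tubule of a human kidney and was transformed with human papillomavirus 16. The labels place 3 libraries in a control group, titled WT and abbreviated shCtrl in the sample descriptions, and 3 in an ANXA2 knockdown group abbreviated shANXA2, with plasmids introduced by lipid transfection. All 6 libraries therefore come from the same transformed line in serum-containing medium, and the labels do not say whether replicates were separate cultures, so p-values measure only the spread between these samples.

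Keratins form filaments as obligate pairs, in which 1 type I (acidic) chain joins 1 type II (basic) chain. KRT8 and KRT18 are the primary pair of simple epithelia, KRT7 and KRT19 are additional simple-epithelial chains found in ducts, and KRT17 is a type I chain of basal and wounded epithelium. Vimentin is a type III protein that assembles with itself and is typical of mesenchymal cells. It is also made by many epithelial cells in culture and by regenerating kidney tubules.

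Library depth ranged from 24231267 to 34561675 reads. The targeted gene was examined first. ANXA2 stood at 1658, 1461 and 1675 CPM (counts scaled to library size with TMM factors) in control replicates 1, 2 and 3, and at 1538, 1561 and 1519 CPM in knockdown replicates 1, 2 and 3. The groups overlapped, and the edgeR estimate on the log2 scale was -0.05 (SE 0.075, adjusted p 0.848). The transcript was not detectably lower where a knockdown was labelled, so the groups are named by their labels and each direction below is a difference between labels. Of 14 proximal tubule markers, 3 reached a mean of 1 FPKM (read counts scaled for transcript length and library size), among them PAX8 at 115 and GGT1 at 69.0 FPKM. The defining transporters and receptors were at or near 0, with 1 read of LRP2, 34 of CUBN and 4 of AQP1 over the 6 libraries. The proximal tubule list summed to 141.52 to 231.43 FPKM. Markers of other cells were lower in sum, with 7.87 to 10.03 FPKM for fibroblast, 1.42 to 3.11 FPKM for leukocyte and at most 0.07 FPKM for endothelial genes. Most of the fibroblast sum was LUM, with a mean of 7.56 FPKM. A mean of 1 FPKM was reached by 2 of 7 fibroblast, 1 of 6 leukocyte and 0 of 5 endothelial markers. The markers of distal tubule and collecting duct summed to 0.19 to 0.58 FPKM.

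The sequences just upstream of 3 of the 10 genes were matched by symbol in RefSeq (GRCh38.p14). All 3 are shown, to give the reader the promoter letters of a type III gene and of a type II and a type I keratin. Each run gives the 250 bases that end just before the start RefSeq lists, read 5′ to 3′ on the strand of the gene. For KRT8 that start lies inside the GENCODE gene interval given below, so its run precedes an internal start and not the outermost one. VIM lies upstream at chr10:17227991-17228240 on the plus strand, KRT8 at chr12:52926470-52926719 on the minus strand and KRT10 at chr17:40822615-40822864 on the minus strand. Capitals mark a GC box, the core of an Sp1 site, searched as GGGCGG on either strand. They also mark the TATA box of a core promoter, which was searched in the same way by its letters TATAAA.
VIM: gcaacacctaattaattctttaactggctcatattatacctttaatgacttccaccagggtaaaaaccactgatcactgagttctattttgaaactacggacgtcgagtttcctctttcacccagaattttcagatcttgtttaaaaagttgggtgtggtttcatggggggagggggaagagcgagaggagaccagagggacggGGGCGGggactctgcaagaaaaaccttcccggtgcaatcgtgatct
KRT8: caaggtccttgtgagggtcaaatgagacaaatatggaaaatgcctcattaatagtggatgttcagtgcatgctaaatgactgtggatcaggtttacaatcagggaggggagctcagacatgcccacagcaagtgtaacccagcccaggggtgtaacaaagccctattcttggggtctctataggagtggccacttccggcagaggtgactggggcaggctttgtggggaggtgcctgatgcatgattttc
KRT10: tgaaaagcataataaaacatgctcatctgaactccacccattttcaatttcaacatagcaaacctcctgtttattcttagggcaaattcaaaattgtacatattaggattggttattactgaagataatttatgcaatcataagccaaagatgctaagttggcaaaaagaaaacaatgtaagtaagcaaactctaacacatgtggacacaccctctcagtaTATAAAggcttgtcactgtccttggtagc
The VIM run held 1 GC box, which 42.6% of the 35116 promoters of the same length in that table also hold. The KRT10 run held 1 TATA box at position -29 from the start, a motif held by 10.7% of those promoters. The AP-1 site, searched as TGACTCA on both strands, was in none of the 3 runs and in 4.2% of all promoters. The share of G and C was 46.0% for VIM, 50.4% for KRT8 and 34.8% for KRT10, against a median of 58.0% over all promoters. These matches are descriptions of letters in a window and not measured sites.

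In order to describe the filament profile of HK-2, levels were compared between genes on the deposited FPKM scale, which corrects for transcript length. Vimentin was the most abundant member in every library, followed by KRT8 and then KRT18. KRT7, KRT19 and KRT80 formed a second tier, KRT10 lay below them, and KRT17 and KRT81 were scarce.

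Vimentin (VIM, ENSG00000026025.13, chromosome 10 from 17228241 to 17237593, plus strand) had 972.53, 848.62 and 978.56 FPKM in control replicates 1, 2 and 3. It had 875.29, 799.93 and 947.71 FPKM in knockdown replicates 1, 2 and 3. Its rank among the genes of the FPKM table lay between 59 and 74 over the 6 libraries. KRT8 (ENSG00000170421.11, chromosome 12 from 52897187 to 52949954, minus strand) had 529.84, 365.54 and 506.07 FPKM in the libraries labelled control and 524.5, 451.32 and 570.5 FPKM in those labelled knockdown. The ranges of VIM and KRT8 did not overlap over the 6 libraries, and VIM exceeded KRT8 by 1.66-fold to 2.32-fold within a library.

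KRT18, the type I partner of KRT8 (ENSG00000111057.10, chromosome 12 from 52948871 to 52952906, plus strand), had 292.57, 211.88 and 278.85 FPKM under the control label. Under the knockdown label it had 259.18, 241.7 and 282.17 FPKM. KRT18 is the type I gene that lies beside KRT8 on chromosome 12, at the end of the type II cluster. KRT8 exceeded KRT18 in 6 of 6 libraries, and KRT18 exceeded the next gene, KRT7, by 1.98-fold to 4.60-fold.

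KRT7 (ENSG00000135480.14, chromosome 12 from 52232520 to 52252186, plus strand) had 115.41, 46.05 and 96.82 FPKM in the libraries labelled control. In those labelled knockdown it had 125.21, 107.06 and 142.28 FPKM. Control replicate 2 was the lowest by more than 2-fold, and the other 5 libraries lay between 96.82 and 142.28 FPKM. KRT19, the type I chain that lacks most of the tail domain of other keratins (ENSG00000171345.13, chromosome 17 from 41523617 to 41528308, minus strand), had 117.09, 63.19 and 105.32 FPKM in control replicates and 91.95, 82.85 and 112.72 FPKM in knockdown replicates. Its lowest library was again control replicate 2. KRT80, a type II epithelial keratin (ENSG00000167767.13, chromosome 12 from 52168996 to 52192014, minus strand), had 96.83, 70.61 and 69.98 FPKM and 84.68, 78.75 and 98.56 FPKM in the same order.

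The ranges of KRT7 and KRT19 overlapped, and KRT7 exceeded KRT19 in 3 of 6 libraries. KRT19 was the higher in the 3 libraries labelled control and KRT7 in the 3 labelled knockdown. KRT19 and KRT80 also overlapped, with KRT19 above in 5 of 6 libraries. KRT10, the type I chain of differentiated epidermis (ENSG00000186395.6, chromosome 17 from 40818117 to 40822614, minus strand), was 5.51-fold to 9.44-fold below KRT80. It had 10.26, 12.03 and 12.71 FPKM in control replicates and 11.2, 11.49 and 11.4 FPKM in knockdown replicates.

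KRT17 (ENSG00000128422.15, chromosome 17 from 41619442 to 41624842, minus strand) had 128, 64 and 115 reads in control replicates 1, 2 and 3 and 111, 458 and 68 reads in knockdown replicates 1, 2 and 3. On the FPKM scale these were 3.24, 1.23 and 2.29 against 1.99, 8.52 and 1.46. Knockdown replicate 2 stood above the other 5 libraries, 2 of them in its own group. KRT81, a type II chain of hair (ENSG00000205426.10, chromosome 12 from 52285913 to 52291534, minus strand), had 66, 17 and 58 reads in control replicates and 79, 34 and 70 reads in knockdown replicates. Its levels of 0.26 to 1.32 FPKM overlapped the range of KRT17, although KRT17 was above KRT81 in 6 of 6 libraries.

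**Figure D1:**
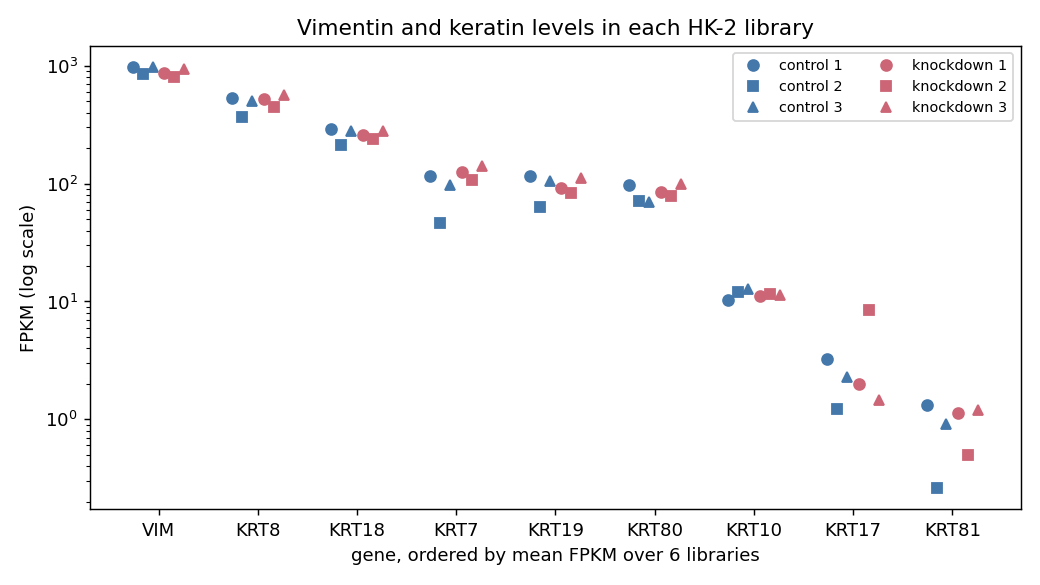
Deposited FPKM (log scale) of the 9 genes in each library, ordered by their mean. Blue marks are the 3 libraries labelled control and red marks the 3 labelled knockdown, with shapes for replicates 1 to 3. VIM, KRT8 and KRT18 do not overlap with each other, whereas KRT7, KRT19 and KRT80 do.

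Some of these reads lie where annotated genes overlap. In GENCODE release 44 the exons of KRT8 and KRT18 share 525 bases on opposite strands, which is 7.63% of the KRT8 and 17.1% of the KRT18 exon bases. VIM-AS1 covers 12.7% of the VIM exon bases on the opposite strand and held 76 to 244 reads per library, against 53873 to 68779 for VIM. KRT10-AS1 shares 61 exonic bases with KRT10 on the opposite strand and held 5999 reads in all, against 4792 for KRT10. No source used here gives the use of strand in counting, so reads from such shared bases cannot be told apart. Identical stretches touch mainly KRT81, since 29.4% of its windows of 100 bases also occur in KRT86 transcripts. The reads of KRT81 are uncertain to at least that extent. For KRT8, 1.60% of windows occur in another keratin gene or pseudogene, and for VIM, KRT7, KRT10, KRT18, KRT19 and KRT80 the share is 0%. Only identical windows were sought, so copies that differ by a few bases were not covered.

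Beyond the members, the table held 18 other keratin genes, which carried 1277 reads in all against 444228 for the 8 keratins examined. They made up 0.178% to 0.298% of the keratin FPKM of a library. KRT15 and KRT78 had the most reads (364 and 341), KRT86 had 148, KRT16 had 6 and KRT83 had 2. KRT1, KRT6A, KRT6B and KRT14, the usual partners of epidermal chains, were not analysed here. The 21 keratin pseudogenes carried 1178 reads, of which KRT8P12 on chromosome 3 held 882, KRT18P5 held 97 and KRT8P39 held 62. Reads of KRT8P12 amounted to 0.320% to 0.525% of those of KRT8, and no window of 100 bases of KRT8P12 occurs in KRT8 transcripts.

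To ask whether the filament genes differed between the labels, the libraries were compared with edgeR. As ANXA2 RNA was not detectably lower under the knockdown label, this comparison cannot show what its loss would do. Of the 9 members 0 passed an adjusted p of 0.05, as did 0% of all tested genes. On the same filtered genes DESeq2 called 37 genes and limma-voom 0, and DESeq2 without the filter called 31. None of these fits called a member. In the main edgeR fit 0 members had an unadjusted p under 0.05, against 8.18% of all tested genes (1251 genes). This depended on the fit for KRT7. Its unadjusted p was 0.033 with DESeq2 on the filtered genes, 0.14 with DESeq2 without the filter and 0.046 with limma-voom. With the replicate number as a block, edgeR gave KRT7 an unadjusted p of 0.013. The groups overlapped for each of the 9 members, whereas they did not overlap for 15.6% of all tested genes. With all 6 libraries, estimates were above 0 for 7 members. The median of the log2 fold changes was then 0.15 over the 9 members, against -0.0065 over all tested genes. This count depended on control replicate 2. Without it, the estimates of KRT18, KRT19 and KRT81 were below 0 (-0.12, -0.21 and -0.24), and that of KRT8 was 0.00082. In bulk RNA, fewer cells expressing a gene and less RNA of it per cell cannot be told apart.

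KRT7 had the smallest p among the members. Under the knockdown label it averaged 233 ± 31.5 CPM, against 160 ± 67.7 CPM under the control label (SD, n = 3). The edgeR fold was 1.46 with a 95% interval of 0.941 to 2.27, or 0.55 on the log2 scale (SE 0.282, adjusted p 0.631). Leaving out control replicate 2 brought the estimate to 0.24, and leaving out control replicate 1 brought it to 0.82. Without the low-count filter edgeR gave KRT7 an adjusted p of 0.0011 and called it as the 1 member among 165 genes.

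VIM was 1988 ± 156 CPM under the knockdown label and 2102 ± 184 CPM under the control label (SD, n = 3). The edgeR estimate on the log2 scale was -0.08 (SE 0.088, adjusted p 0.805), and the 95% interval of the fold was 0.824 to 1.09. Without control replicate 2 the estimate was -0.15, and without knockdown replicate 2 it was -0.02.

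For KRT8 the values under the knockdown and control labels, in this order here and below, were 1223 ± 136 CPM and 1099 ± 218 CPM (SD, n = 3), with an edgeR fold of 1.11 (95% interval 0.888 to 1.40) and an adjusted p of 0.767. This estimate fell to 0.00082 on the log2 scale without control replicate 2 and was 0.26 without control replicate 1. KRT18 was 558 ± 39.8 CPM and 554 ± 96.4 CPM, a fold of 1.01 (0.826 to 1.23). KRT19 was 142 ± 21.6 CPM and 140 ± 42.7 CPM, a fold of 1.01 (0.726 to 1.42). The edgeR adjusted p was 0.983 for both. Without control replicate 2 the log2 estimates were -0.12 for KRT18 and -0.21 for KRT19, and without knockdown replicate 3 they were -0.04 and -0.10. KRT80 was 362 ± 39.6 CPM and 325 ± 65.6 CPM, a fold of 1.11 (0.889 to 1.39) with an edgeR adjusted p of 0.765. Without knockdown replicate 3 its log2 fold change was 0.07 and without control replicate 1 it was 0.33.

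KRT10 was 25.7 ± 0.328 CPM and 26.1 ± 2.71 CPM (SD, n = 3), a fold of 0.984 (0.815 to 1.19) and an edgeR adjusted p of 0.965. KRT17 and KRT81 had the widest intervals of the members. KRT17 was 6.49 ± 6.41 CPM and 3.63 ± 1.65 CPM, and edgeR put the difference at 0.85 on the log2 scale (SE 0.629, adjusted p 0.715). Its direction was set by 1 library, as the estimate was -0.36 without knockdown replicate 2. KRT81 was 1.92 ± 0.776 CPM and 1.70 ± 1.10 CPM, a fold of 1.14 with a 95% interval of 0.473 to 2.76 that includes changes of 2-fold in either direction. Its edgeR adjusted p was 0.937. The estimate was -0.24 without control replicate 2.

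**Figure D2:**
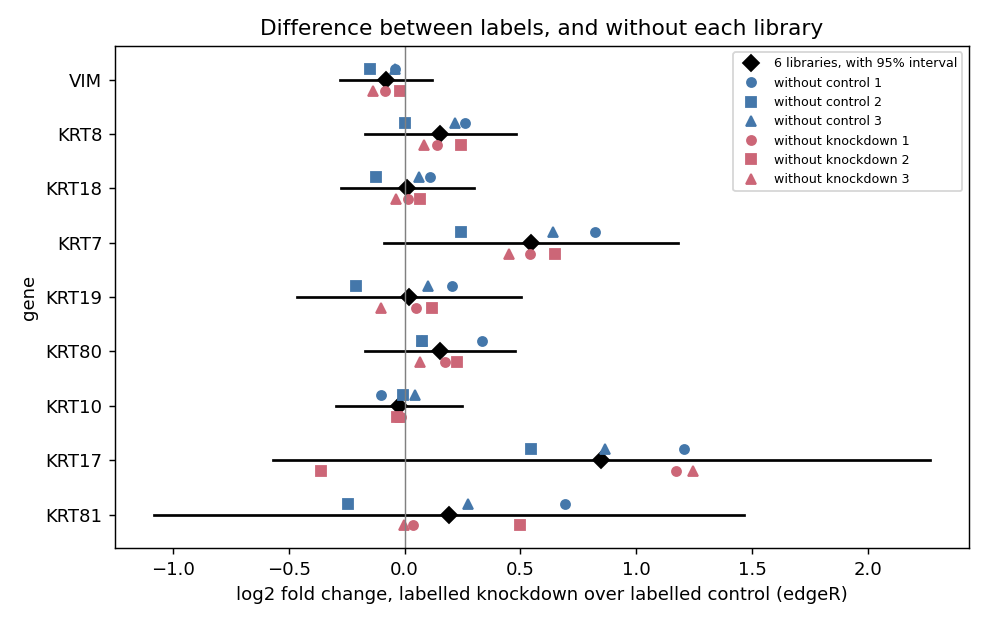
edgeR log2 fold change (x axis) of each gene, labelled knockdown over labelled control. Diamonds with lines are the estimates from 6 libraries with 95% intervals, all of which span 0, and the coloured marks are estimates with 1 library left out. KRT17 turns from 0.85 to -0.36 without knockdown replicate 2.

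The variation among libraries was described next. On CPM, control replicate 2 was the lowest library for 7 of the 9 members, namely KRT7, KRT8, KRT17, KRT18, KRT19, KRT80 and KRT81. It was the lowest library for 25.5% of all tested genes and the highest for 25.7%, so an extreme value in this library was common in either direction. In this library KRT7 was 0.455, KRT19 0.665, KRT8 0.740, KRT18 0.804 and KRT80 0.843 times its own geometric mean over the 6 libraries. KRT80 was about as low in control replicate 3, at 0.846 times its mean. On the FPKM scale control replicate 3 was its lowest library, at 69.98 against 70.61 in control replicate 2. In control replicate 2, KRT81 was 0.331 and KRT17 0.491 times its mean. VIM was 0.927 times and KRT10 1.03 times its mean there. Among the members, keratins of simple epithelium were thus low in 1 control library in which VIM and KRT10 were closer to their means. KRT17 and KRT81 were also low there, at 64 and 17 reads. The 7 tested genes among the other keratins were not low by their median deviation, which was 0.08 on log2 CPM in control replicate 2. Yet 3 of the 7 were lowest in it, against 25.5% of all tested genes. These 7 genes rest on 0 to 89 reads a library, so their median says little.

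The marker lists were read in the same library. The median deviation of the tested genes of a list in control replicate 2, on log2 CPM, was -0.49 for 3 fibroblast and -0.59 for 2 leukocyte markers, -0.07 for 5 proximal tubule markers and 0.06 for 1 collecting duct marker, against -0.43 for the members. The lists described further below were closer to 0 or above it in this library. The median was -0.07 for 11 tested genes of other intermediate filaments and 0.05 for 16 of cytolinkers and desmosomes. It was 0.24 for 14 transcription factors and -0.01 for 9 surface genes of epithelial and mesenchymal state. The part of any of these lists in the keratin values was not tested. The TMM factor of this library was 1.02, and its depth of 32035393 reads lay within the range of the others.

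The spread of each member was set against that of genes of similar abundance (within 2-fold of its mean CPM). The SD of log2 CPM over the 6 libraries was 0.59 for KRT7, larger than for 98.4% of 1596 such genes. It was 0.34 for KRT19 (larger than 94.2%), 0.24 for KRT8 (91.4%), 0.22 for KRT80 (83.0%) and 0.18 for KRT18 (76.8%). VIM, with an SD of 0.12, was near the middle of its 106 peers (44.3%). KRT10 was among the steadiest genes of its level, with an SD of 0.10 that exceeded that of 8.97% of its peers. KRT17 and KRT81 had the largest spread of the members, at 1.01 (larger than 98.5% of its peers) and 0.93 (93.2%).

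**Figure D3:**
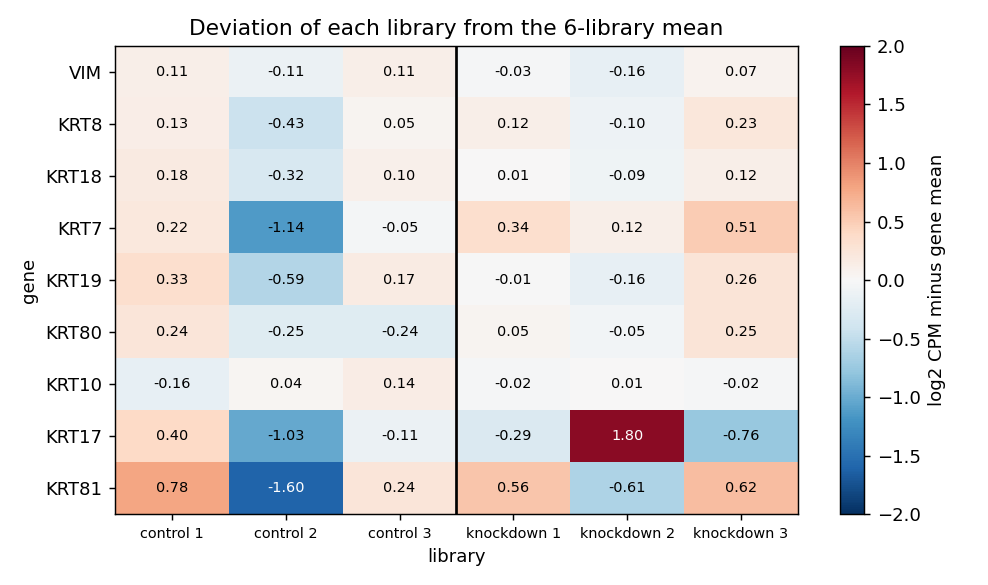
Log2 CPM of each gene in each library minus the mean of that gene over the 6 libraries, in colour and as numbers. Libraries labelled control are left of the line. Control replicate 2 is low for 7 genes but near the mean for VIM and KRT10, and KRT17 is 1.80 above its mean in knockdown replicate 2.

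The genes whose profiles over the 6 libraries were most like those of KRT17 and KRT81, the most variable members, were sought among 8908 genes with a mean of at least 10 CPM. Likeness was the root mean square difference of log2 CPM after centring each gene. KRT81 was closest to STMN3 (0.26), ITGB4 (0.36) and MAL (0.39). ITGB4 encodes the integrin subunit that anchors keratins at hemidesmosomes. Each of the 3 had its lowest value in control replicate 2, from -1.91 to -1.36. This follows from their choice by likeness to KRT81, which was at -1.60 in that library, and is not a separate result. KRT17 was closest to ANKZF1, PPP1R3C and PFKFB4, at larger distances of 0.60, 0.60 and 0.61. Their Pearson correlations with KRT17 over the 6 libraries were 0.87, 0.83 and 0.74. These too follow from the choice by likeness and are not a separate result. Genes with a mean below 10 CPM, as KRT17 and KRT81 have, were not searched.

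Because keratin chains pair, ratios within a library were compared next, which do not depend on scaling between libraries. The summed FPKM of type I members (KRT10, KRT17, KRT18 and KRT19) over that of type II members (KRT7, KRT8, KRT80 and KRT81) was 0.569, 0.598 and 0.592 in control replicates 1, 2 and 3. It was 0.495, 0.540 and 0.502 in knockdown replicates 1, 2 and 3. All 3 libraries labelled knockdown lay below the 3 labelled control, with means of 0.513 ± 0.0243 and 0.586 ± 0.0151 (SD, n = 3, two-sided exact permutation p 0.1). The ratio of KRT18 to KRT8 was 0.552, 0.580 and 0.551 under the control label and 0.494, 0.536 and 0.495 under the knockdown label (exact permutation p 0.1). The share of VIM in the summed FPKM of the 9 genes was 45.5%, 52.4% and 47.7% in control replicates and 44.3%, 44.9% and 43.7% in knockdown replicates (exact permutation p 0.1). The mean difference in this share was -4.22 percentage points, and -2.28 without control replicate 2. A p of 0.1 is the smallest that 3 against 3 libraries allow, and it was also 0.1 after adjustment over these 3 comparisons, so none could pass a threshold of 0.05.

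**Figure D4:**
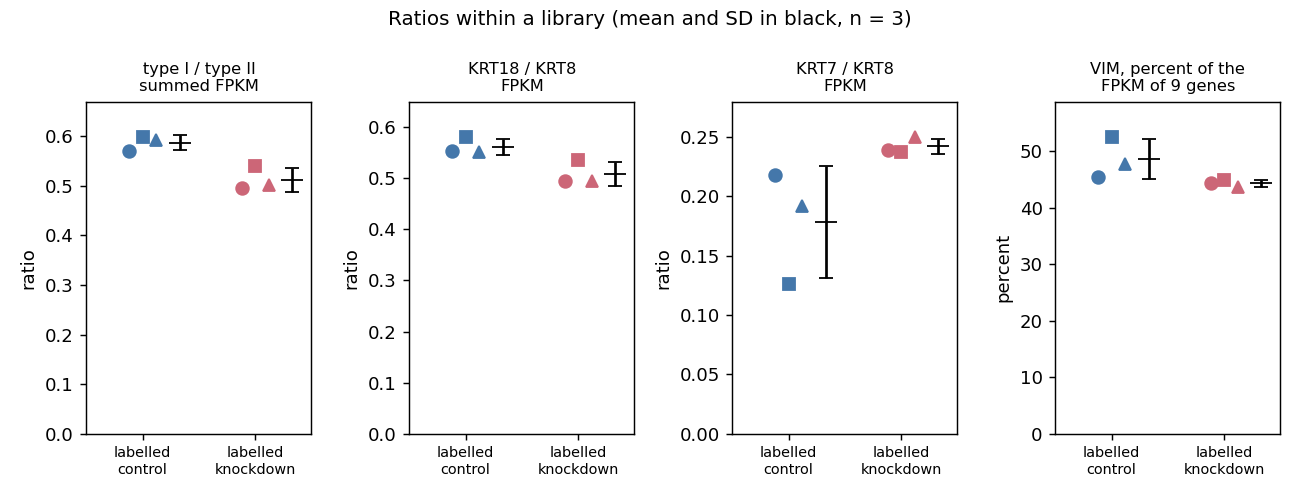
Ratios of FPKM within a library and the share of VIM in the FPKM of the 9 genes (y axes, starting at 0), with each library as a mark and the mean and SD (n = 3) in black. The KRT18 to KRT8 ratio spans 0.551 to 0.580 under the control label and 0.494 to 0.536 under the knockdown label.

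The same count was made over all gene pairs. Of the 36 ratios between 2 members, 6 (16.7%) did not overlap between the labels, against 14.1% of the 113318985 ratios between 2 tested genes with reads in every library. KRT7 was in 4 of the 6, being higher relative to VIM, KRT8, KRT18 and KRT19 under the knockdown label, and the others were VIM with KRT8 and KRT8 with KRT18. The ratio of KRT7 to KRT8 was 0.218, 0.126 and 0.191 in control replicates and 0.239, 0.237 and 0.249 in knockdown replicates. The ratio of KRT19 to KRT7 was 1.01, 1.37 and 1.09 against 0.734, 0.774 and 0.792. Without control replicate 2, 9 of the 36 ratios (25.0%) did not overlap, against 20.7% of all ratios. The 6 named above are among them by construction, since omitting a library cannot make labels overlap that did not overlap before. KRT10 and KRT17 were in 0 such ratios in either case. Without knockdown replicate 3 the count was 6 of 36 (16.7%), below the 27.8% of all ratios.

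Other genes of the filament system were examined from lists. None of their tested genes passed an adjusted p of 0.05 in edgeR in either direction. Of 15 other intermediate filament genes 11 were tested, with a median log2 fold change of -0.10. LMNA and LMNB2, which encode nuclear lamins, were the most abundant at 105 and 42.1 FPKM (log2 fold changes of 0.09 and -0.10), and SYNM (-0.32) and NEFM (-0.28) had the largest estimates. Of 20 genes for cytolinkers and desmosomes, which attach keratin filaments, 16 were tested with a median of -0.03. JUP and PLEC led in abundance at 25.7 and 21.5 FPKM (0.24 and 0.21), and ITGB4 (0.51) and PKP3 (0.37) had the largest estimates. For the 7 tested genes among the other keratins the median was -0.20. KRT79 (-0.76) and KRT15 (-0.34) had the largest estimates there, and KRT78 and KRT34 the highest levels at 0.590 and 0.375 FPKM.

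Among 19 transcription factors of epithelial and mesenchymal state, 14 were tested, their median estimate was 0.08, and 1 had an unadjusted p under 0.05. ELF3 and SNAI1 were the most abundant at 27.5 and 10.9 FPKM (0.49 and 0.20), and TFAP2C (-0.79) and TWIST1 (-0.57) had the largest estimates. Among 12 surface genes of these states 9 were tested with a median of -0.17, and 2 had an unadjusted p under 0.05. FN1 and CD44 had the highest levels at 378 and 126 FPKM (-0.25 and -0.17). The following genes of this list were named after their values were seen. The claudins CLDN1 and CLDN4, of epithelial tight junctions, reached 119 and 15.1 FPKM and EPCAM 28.9 FPKM. CDH2, N-cadherin, reached 31.2 FPKM while CDH1, E-cadherin, stayed at 0.0433 FPKM, and CDH11 was not analysed here. MUC1 (0.62) and CDH6 (-0.38) had the largest estimates, with adjusted p of 0.599 and 0.615 in edgeR.

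Lists of markers gave no call in edgeR either. The tested proximal tubule markers had a median log2 fold change of 0.11, with estimates of 0.22 for PAX8, 0.11 for GGT1 and 0.17 for SLC5A2. The medians were -0.17 for fibroblast markers (LUM at -0.17, COL1A1 at -0.13 and PDGFRB at -0.78) and 0.46 for leukocyte markers (CD14 at 0.52 and CD68 at 0.39), and the 1 tested distal marker, ATP6V1B1, had 0.06. No endothelial marker was tested.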

How the data were processed

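RNA-seq of 6 HK-2 libraries was analysed, 3 labelled control and 3 labelled ANXA2 knockdown, grouped by sample title. Raw read counts per gene were deposited by the authors without normalisation. A second table deposited by the authors holds FPKM, normalised for gene length and library size and given to 2 decimals. The submitters' processing notes name bcl2fastq, TopHat2, edgeR and GRCh38, whereas no source used here gives the annotation release or strand setting. Coordinates are from GENCODE 44 on GRCh38.

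Counts went into edgeR 4.0.16 (R 4.3.3), fitted by quasi-likelihood with TMM scaling and filterByExpr (minimum count 10, total 15), without covariates. P-values are two-sided and adjusted over all 15299 tested genes by Benjamini-Hochberg at 0.05. The standard error is the log2 fold change divided by the root of F. Ratios of FPKM were compared by exact permutation (scipy 1.17.1). The fits were tested on simulated data. Alternatives were RLE, upper-quartile and library-size scaling, no filter, DESeq2 1.42.0 on all rows and (chosen after seeing the data) on the filtered genes, limma-voom 3.58.1, a replicate block and omission of each library.

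The members and lists were chosen with earlier results of these data known. Named genes were all members, ANXA2, 7 keratin relatives, per list the 2 most abundant and the 2 with the largest estimates, the 3 pseudogenes with most reads, and the 3 genes nearest in profile to the 2 most variable members. KRT17 and KRT81 rest on 17 to 458 reads a library.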

Additional observations from a re-analysis of the deposited data

How the results depend on the processing

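In edgeR 0 genes passed an adjusted p of 0.05 (1251 at an unadjusted p under 0.05), and so did 0 under 10 of 14 alternatives. The count was 165 without the low-count filter, where 1 member (KRT7) passed, 31 with DESeq2 on all rows, and 37 with DESeq2 on the filtered genes (chosen after seeing the data), with 0 members in both. Leaving out 1 library gave 0 to 4 genes and 0 members, and the 4 came without knockdown replicate 2. The cause of these changes was not tested.

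Of 126 estimates for members under alternatives, 116 changed neither sign nor call, 1 passed the threshold (KRT7) and 9 changed sign. KRT18 changed to -0.0090 with library size only. When 1 library was left out, the log2 fold changes ran from -0.10 to 0.046 for KRT10, -0.36 to 1.25 for KRT17, -0.12 to 0.11 for KRT18, -0.21 to 0.20 for KRT19 and -0.24 to 0.69 for KRT81. The sign of KRT10 changed without control replicate 3 and that of KRT17 without knockdown replicate 2. For KRT18, KRT19 and KRT81 it changed without control replicate 2 and without knockdown replicate 3. The ANXA2 estimate kept its sign under all 14 alternatives, from -0.11 to -0.017.

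The 3 ratio comparisons kept their direction under every alternative run. Leaving out 1 library could not reverse them, since the labels did not overlap in any of the 3, and the replicate block leaves the mean difference unchanged. The 3 are also not independent, as KRT8 and KRT18 enter each of them. The difference in VIM share lay between -5.75 and -2.28 percentage points when 1 library was left out (-2.28 without control replicate 2). The number of non-overlapping member ratios, an alternative chosen after seeing the data, was 6 to 10 of 36 when 1 library was left out. Omitting a library cannot bring this number below 6. The 10 (27.8%, against 29.3% of all gene pairs) came without control replicate 1. The 6 (16.7%) came without knockdown replicate 1 (19.2% of all gene pairs) and without knockdown replicate 3 (27.8%). It was 22.2% against 26.2% without control replicate 3, and 25.0% against 23.2% without knockdown replicate 2. The labels do not say whether replicate numbers pair the libraries. Deviations from the group means correlated at -0.06, 0.12 and -0.20 for numbers 1, 2 and 3, and not every library correlated best with its own number. With 3 libraries per label these correlations cannot settle whether the libraries were paired. With the number as a replicate block edgeR gave 0 genes and 0 members (1076 genes at an unadjusted p under 0.05). For the ratios, sign flips over the 3 same-numbered pairs each gave 0.25, the smallest p they allow.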
